A study of Homo sapiens with 6 samples.

Results

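The genes described here are 7 caspase genes, *CASP1*, *CASP2*, *CASP4*, *CASP6*, *CASP8*, *CASP9* and *CASP10*, together with *GSDMD*, which encodes gasdermin D. They were taken by gene symbol from a table of 31142 genes, in which each of the 8 symbols has 1 identifier. RNA was sequenced from 3 samples titled SKM-1 with S34F mutant U2AF1 (S34F) and 3 titled SKM-1 with wild-type U2AF1 (WT), all taken at 96 h. U2AF1 is the splicing factor that reads the 3′ end of introns, and S34F is a substitution in it that recurs in myelodysplastic syndromes. Both forms were FLAG-tagged and brought into the cells by lentivirus from a ubiquitin promoter vector, with puromycin selection. The methods call the transduced cells stable clones without saying how many clones a group holds, and the cells keep their own *U2AF1* gene. The titles of the WT samples also hold the prefix NC, which the study uses for negative controls, and its RNA protocol speaks of a vehicle control, so the WT group was defined by its titles and its genotype label. The study's negative controls are untransfected cells, and whether the WT samples carry extra U2AF1 cannot be told from the labels. The study calls its RNA samples independent and speaks of 3 pairs, but the labels do not say that the replicates were separate cultures. The p-values therefore measure the spread between these samples, which may be technical. In such bulk samples, fewer cells of a type and less RNA per cell cannot be told apart.

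Caspases are proteases that cut other proteins after aspartate and are made as inactive precursors. Initiator caspases are switched on by being brought together on a scaffold: caspase-8 and caspase-10 below death receptors, caspase-9 on the apoptosome that forms when mitochondria release cytochrome c, and caspase-2 on a complex with PIDD1. They cut and switch on executioners, among them caspase-6, which dismantle the cell. The inflammatory caspases caspase-1, caspase-4 and caspase-5 act in inflammasomes and cut gasdermin D, whose released N-terminal part forms pores in the plasma membrane in the lytic death called pyroptosis. Much of this control acts on the proteins by cleavage, and the level of a caspase mRNA is not a measure of the active enzyme.

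The caspases are tied together by the pentapeptide around the catalytic cysteine, Gln-Ala-Cys-x-Gly, and its coding sequence is shown because it marks what the 7 genes share and where they part. The sequences are 33 coding bases from GENCODE 29 on GRCh38, 5′ to 3′, and the capitals mark the 15 bases that encode the pentapeptide.
CASP1: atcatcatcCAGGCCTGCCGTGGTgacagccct
CASP4: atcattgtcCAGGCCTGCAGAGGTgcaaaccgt
CASP2: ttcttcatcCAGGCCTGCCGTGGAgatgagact
CASP9: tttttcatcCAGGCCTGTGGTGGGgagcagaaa
CASP8: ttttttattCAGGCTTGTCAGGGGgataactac
CASP10: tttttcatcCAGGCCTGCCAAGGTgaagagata
CASP6: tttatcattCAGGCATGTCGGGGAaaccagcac

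The x of the pentapeptide was arginine in CASP1, CASP2, CASP4 and CASP6, glutamine in the death receptor caspases CASP8 and CASP10, and glycine in CASP9. Of the 15 bases, CASP1 and CASP2 shared 14, the highest number among the pairs of genes, and CASP4 and CASP8 shared 9, the lowest. Exons are counted in the annotated transcript with the longest coding sequence that holds the pentapeptide, and other transcripts of a gene can number them differently. The codon of the catalytic cysteine lies in the coding part of exon 6 of 10 in CASP1 (chr11:105029672-105029674, minus strand, GRCh38), exon 5 of 9 in CASP4 (chr11:104949550-104949552, minus) and exon 8 of 11 in CASP2 (chr7:143300285-143300287, plus). It lies in exon 6 of 8 in CASP9 (chr1:15504618-15504620, minus), exon 8 of 9 in CASP8 (chr2:201285091-201285093, plus), exon 9 of 10 in CASP10 (chr2:201209348-201209350, plus) and exon 6 of 7 in CASP6 (chr4:109691004-109691006, minus). In CASP1, CASP2, CASP4 and CASP9 the exon ended 7 bases after this codon, so the window runs across a splice junction. In CASP6 the exon began 3 bases before it, behind the glutamine codon. CASP8 and CASP10 held the whole window inside 1 exon, with at least 212 bases of exon to either side of the cysteine codon. The deposited values are sums per gene, and they do not show whether an exon was included.

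The values are FPKM, fragments per kilobase of transcript relative to the depth of the library, as the authors deposited them, so levels of different genes can be set side by side. The approximate depth, read from the value of 1 fragment in single-exon genes, was 20.5 to 24.8 M fragments in S34F and 24.7 to 26.1 M in WT. Of the 31142 genes, 10942 averaged 1 FPKM or more over the 6 libraries and were tested with limma on log2(FPKM + 1). A call was a fold above 1.5 on that scale with an unadjusted p under 0.05. *U2AF1* itself stood at 9.24, 9.48 and 9.18 FPKM in S34F and 8.67, 8.7 and 7.65 FPKM in WT, and the table lists *U2AF1L5*, a near-identical copy that can take part of its reads, at 9.18 to 10 FPKM. These sums per gene do not tell the mutant from the wild-type transcript and so check no label. Replicate 3 of each group stood apart from the other libraries, with first principal component scores of 35.1 and 12.9 against −16.3 to −7.71 for the rest, on a component with 47.9% of the variance. SKM-1 is a myeloid leukaemia line with monocytic features. Of 10 monocytic and granulocytic markers, 4 reached a mean of 1 FPKM and 4 (*MPO*, *FCN1*, *S100A8* and *CSF1R*) were under 0.1 FPKM, while all 10 erythroid markers reached 1 FPKM and together summed to 10601 to 12180 FPKM per library. The labelled cell type was thus not borne out by these markers, and the cells are called by their titles.

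*CASP6* was the highest of the 8 genes, with a mean of 6.49 FPKM over the 6 libraries, and *CASP1* the lowest, at 0.00535 FPKM. Between them came *CASP9* at 5.71, *CASP8* at 3.38, *CASP2* at 2.55, *CASP10* at 0.799, *GSDMD* at 0.669 and *CASP4* at 0.577 FPKM. The apoptotic caspases *CASP6*, *CASP9*, *CASP8* and *CASP2* were therefore the upper end of the set. *CASP10*, also an apoptotic initiator, stood at the lower end with the inflammatory caspases and their pore-forming substrate. On the scale of the whole table, *CASP6* was higher than 84.4% of genes, *CASP4* than 59.2% and *CASP1* than 8.86%. Neighbours in this order often overlapped. *CASP6* exceeded *CASP9* in 5 of 6 libraries, *CASP8* exceeded *CASP2* in 5 of 6, *CASP10* exceeded *GSDMD* in 5 of 6 and *GSDMD* exceeded *CASP4* in 3 of 6, and in each of these 4 pairs the ranges over libraries overlapped. The steps without overlap were from *CASP9* down to *CASP8*, with a median ratio of 1.54 within a library, from *CASP2* down to *CASP10*, with a median ratio of 2.94, and from *CASP4* down to *CASP1*.

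The groups overlapped in all 8 genes. Of the 4 that were tested (*CASP2*, *CASP6*, *CASP8* and *CASP9*), 0 had groups that did not overlap, against 7.38% of the 10942 genes tested. Likewise 0 of the 4 were called, against 0.585% of all genes tested, and 0 had an unadjusted p under 0.05 by limma, against 2.39%. At an adjusted p under 0.05 the count was 0 both for the 4 genes and for all genes tested, which is 0% (limma with Benjamini-Hochberg adjustment). The difference of S34F from WT was above 0 for 3 of the 4 and below 0 for 1, with a median of 0.07 on the log2 scale beside a median of 0.01 over all genes tested, of which 54.6% lay above 0. *CASP1*, *CASP4*, *CASP10* and *GSDMD* were under the filter, and their values below come from a fit without it.

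*CASP6* encodes an executioner caspase that cuts nuclear lamins. It stood at 6.46, 6.81 and 7.09 FPKM in S34F replicates 1, 2 and 3 and at 5.8, 6.19 and 6.58 FPKM in WT replicates 1, 2 and 3, with means of 6.79 ± 0.316 and 6.19 ± 0.391 FPKM (SD, n = 3). The S34F library was the higher in all 3 pairs of equal replicate number, but the lowest S34F library lay under the highest WT library. The difference was 0.12 on the log2 scale (SE 0.10, 95% interval −0.12 to 0.36, adjusted p = 1 by limma), and its exact permutation p was 0.2 where 3 against 3 allows 0.1 at the least. This interval leaves out a 1.5-fold change on log2(FPKM + 1) in either direction, as the intervals of 73.7% of all genes tested do. *CASP6* (ENSG00000138794, chr4:109688622-109703583, minus strand) overlaps *MCUB* on the other strand, and the sources used here do not say whether strand was used in quantification, so reads of the overlap could belong to either gene.

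*CASP9*, the initiator that is assembled on the apoptosome, stood at 4.54, 6.24 and 5.42 FPKM in S34F and at 5.45, 5.83 and 6.8 FPKM in WT. The means were 5.4 ± 0.847 and 6.02 ± 0.696 FPKM (SD, n = 3). The lowest library was S34F replicate 1 and the highest WT replicate 3, while S34F replicate 2 was above both other WT libraries. The difference was −0.14 on the log2 scale (SE 0.14, interval −0.47 to 0.19, adjusted p = 1 by limma, exact permutation p = 0.4). A 1.5-fold change on log2(FPKM + 1) lay outside its interval too. *CASP9* (ENSG00000132906, chr1:15490832-15526534, minus strand) overlaps *CELA2B* on the other strand.

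The partners of caspase-9 were at very unequal levels. *CYCS*, the cytochrome c gene, was the highest of all the pathway genes at 68.7 to 92.2 FPKM (log2 difference 0.13, unadjusted p = 0.317, limma). *APAF1*, the scaffold of the apoptosome, stood only at 0.962, 0.759 and 1.35 FPKM in S34F and at 0.935, 0.831 and 0.936 FPKM in WT. *CASP9* exceeded *APAF1* in every library, by 4.02 to 8.22 times in S34F and 5.82 to 7.26 times in WT, and these ranges overlap. All 5 tested genes of the apoptosome and mitochondrial list had differences above 0, with a median of 0.06 on the log2 scale, and 0 of them had an unadjusted p under 0.05.

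*CASP8*, the initiator below death receptors, stood at 3.09, 2.83 and 4.36 FPKM in S34F and at 3.48, 3.86 and 2.66 FPKM in WT. The means of 3.43 ± 0.822 and 3.33 ± 0.614 FPKM (SD, n = 3) nearly coincide. Replicates 3 held the highest S34F and the lowest WT value, and among replicates 1 and 2 the WT libraries were above the S34F libraries. The difference was 0.03 on the log2 scale (SE 0.17, interval −0.39 to 0.44, adjusted p = 1 by limma, exact permutation p = 0.9). It turned to −0.12 without S34F replicate 3 (unadjusted p = 0.43), to −0.09 without WT replicate 3 (unadjusted p = 0.624) and to −0.24 without both replicates 3 (unadjusted p = 0.0419, limma on 2 against 2 libraries). The sign of the *CASP8* difference thus depended on the libraries numbered 3.

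*CASP10* lies beside *CASP8* on chromosome 2, with *CASP10* at 201182881 to 201229406 (ENSG00000003400) and *CASP8* at 201233443 to 201287711 (ENSG00000064012), both on the plus strand, and *CASP10* overlaps 3 mitochondrial pseudogenes on the other strand. It encodes the second death receptor initiator, and stood at 0.639, 0.643 and 1.03 FPKM in S34F and at 0.735, 0.968 and 0.781 FPKM in WT. S34F replicate 3 was the highest of the 6 libraries, and the other S34F libraries were the lowest. The means were 0.77 ± 0.222 and 0.828 ± 0.124 FPKM, and the difference was −0.05 on the log2(FPKM + 1) scale (SE 0.13, interval −0.37 to 0.27, unadjusted p = 0.704 by limma, exact permutation p = 0.6). *CASP8* exceeded its neighbour by 4.84, 4.39 and 4.25 times in S34F and by 4.73, 3.99 and 3.41 times in WT, and these ranges overlap.

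*FADD*, the adaptor that joins the receptors to these caspases, was far above them at 28.5 to 32.9 FPKM and differed by 0.01 on the log2 scale (unadjusted p = 0.908, limma). It was 7.43 to 10.4 times the level of *CASP8* in S34F and 7.53 to 12.4 times in WT. *CFLAR*, whose product c-FLIP is the caspase-8 lookalike that restrains it, stood at 1.66, 1.25 and 1.01 FPKM in S34F and at 1.99, 1.88 and 1.42 FPKM in WT. S34F was the lower in all 3 pairs, and the groups overlapped. The log2 difference of *CFLAR* was −0.27 (SE 0.15, unadjusted p = 0.111, adjusted p = 1, limma), and with the replicate number as a block its unadjusted p was 0.0453 and its adjusted p 0.994. *CASP8* was 1.87, 2.27 and 4.33 times *CFLAR* in S34F and 1.74, 2.05 and 1.87 times in WT, so S34F replicate 3 stood out and the other 5 libraries lay between 1.74 and 2.27. Of the 9 tested death receptors and adaptors, 6 had differences above 0 and 3 below, with a median of 0.01, and 0 had an unadjusted p under 0.05.

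*CASP2*, the initiator that answers to genotoxic stress and to surplus centrosomes, stood at 2.16, 3.66 and 2.56 FPKM in S34F and at 2.78, 2.37 and 1.8 FPKM in WT. S34F replicate 2 was the highest library and WT replicate 3 the lowest, with the other 4 interleaved. The means were 2.79 ± 0.777 and 2.32 ± 0.494 FPKM, and the difference of 0.19 on the log2 scale was the largest in size among the 4 tested genes (SE 0.18, interval −0.25 to 0.62, adjusted p = 1 by limma, exact permutation p = 0.5). Its upper bound passes a 1.5-fold rise, and without S34F replicate 2 the value was 0.03. *PIDD1*, the scaffold for caspase-2, was 3.71, 2.06 and 2.07 times *CASP2* in S34F and 2.42, 2.89 and 3.81 times in WT. The genes whose centred log2 pattern over the 6 libraries was nearest to *CASP2* (ENSG00000106144, chr7:143288215-143307696, plus strand) were *MRPS28*, *AAGAB* and *SETP14*, with root mean square differences of 0.062, 0.074 and 0.084 beside 0.228 for the pattern of *CASP2* itself. They were picked as the nearest of all genes tested, over only 6 libraries, and a link to *CASP2* was not tested. *CASP2* holds *RN7SL481P* and *RN7SL535P*, small RNA pseudogenes on its own strand, and reads there could belong to either.

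**Figure D1:**
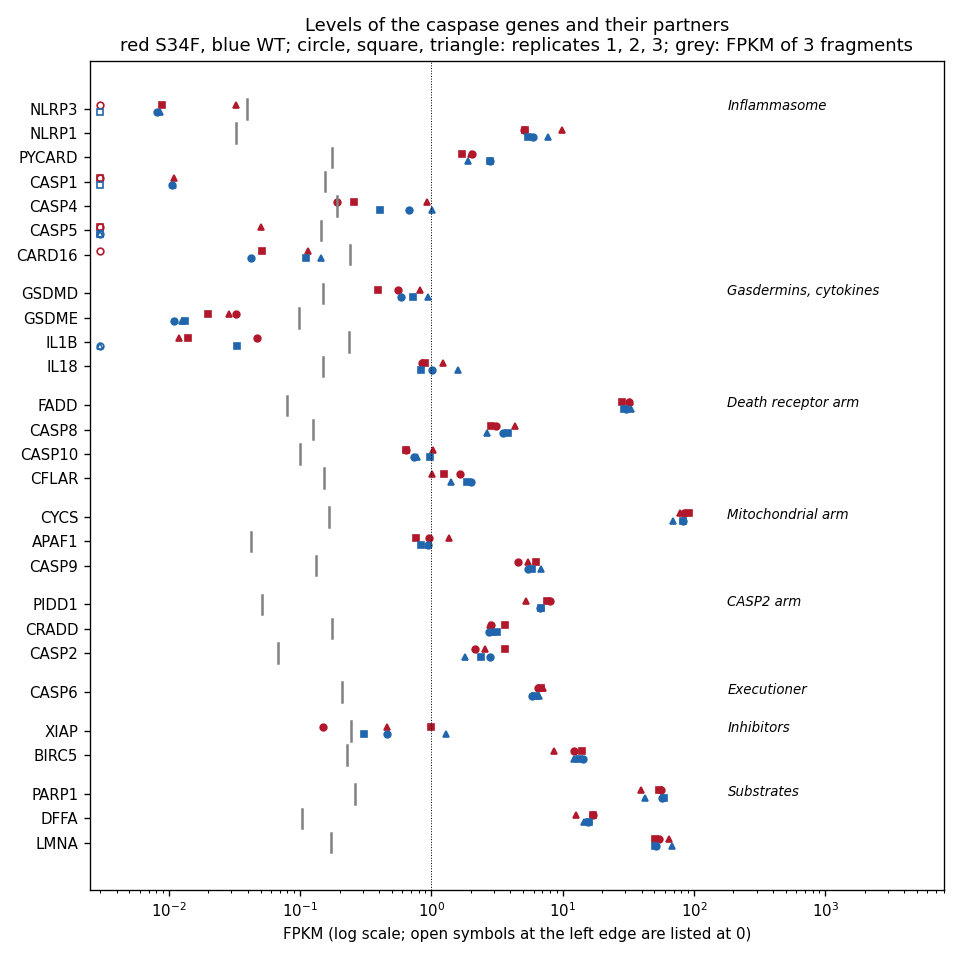
FPKM (log axis) of the caspase genes, *GSDMD* and their partners, by role, in 3 S34F (red) and 3 WT (blue) libraries, with a grey tick at the FPKM that 3 fragments would give. *CYCS*, *FADD*, *PARP1*, *DFFA* and *LMNA* lie right of the caspases, while *CASP1*, *CASP5*, *NLRP3*, *CARD16*, *GSDME* and *IL1B* lie left of their grey ticks (set by the median transcript length) in all 6 libraries.

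*CASP1* encodes the caspase that inflammasomes switch on and that matures interleukin-1β and interleukin-18. It was listed at 0, 0 and 0.0109 FPKM in S34F and at 0.0105, 0 and 0.0107 FPKM in WT. By its median transcript length these values come to 0.765 fragments in all 6 libraries together, and by its longest transcript to 1.61. A level of 3 fragments in a library would be up to 0.155 FPKM, and all 6 libraries were under it, so no fold is given: *CASP1* mRNA was not detectable at this depth in either group. Of the 31-base words in its transcripts, 8.93% also occur in other genes, chiefly *CARD16*, which arose from a copy of its 5′ part and could take shared reads. *CARD16* was also under the level of 3 fragments in all 6 libraries by its median transcript length, and in 4 of 6 by its longest, at 0 to 0.143 FPKM. *CASP1* is ENSG00000137752, at chr11:105025443-105035250 on the minus strand.

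Of the other parts of the classical NLRP3 pathway, *NLRP3* and *IL1B* were near or under the detection level, while the adaptor *PYCARD* and the cytokine *IL18* were detected. *CASP5*, another inflammatory caspase, was under that level in all 6 libraries. *NLRP3*, the sensor, was at 0, 0.00888 and 0.0322 FPKM in S34F and 0.00813, 0 and 0.0085 FPKM in WT, which is 5.3 fragments in all 6 libraries and under the 3-fragment level of 0.0393 FPKM in each, although by its longest transcript the highest library would hold 3.44 fragments. *IL1B* was listed at 0 to 0.0468 FPKM and *CASP5* above 0 in only 1 library, at 0.0507 FPKM. *PYCARD*, the adaptor ASC between sensor and caspase-1, was detected at 2.04, 1.71 and 2 FPKM in S34F and 2.78, 2.81 and 1.89 FPKM in WT. Its log2 difference was −0.25 (SE 0.14, unadjusted p = 0.121, adjusted p = 1, limma), and −0.38 without WT replicate 3 (unadjusted p = 0.0144, adjusted p = 1). With any other single library left out it was −0.28 to −0.18, with unadjusted p of 0.136 to 0.318 (limma). *NLRP1*, another sensor, was the highest of its list at 5.11, 5.13 and 9.86 FPKM in S34F and 5.93, 5.46 and 7.74 FPKM in WT, with a log2 difference of 0.02 (unadjusted p = 0.944, limma). *IL18*, the other cytokine that caspase-1 matures, stood at 0.843, 0.893 and 1.23 FPKM in S34F and 1.01, 0.826 and 1.6 FPKM in WT (log2 difference −0.10, unadjusted p = 0.571, limma). In both of the last genes replicate 3 was the highest library of each group.

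*CASP4*, the human caspase that binds bacterial lipopolysaccharide in the cytosol and cuts gasdermin D, varied most between libraries relative to its mean among the 7 genes averaging at least 0.1 FPKM. It stood at 0.19, 0.256 and 0.926 FPKM in S34F and at 0.674, 0.405 and 1.01 FPKM in WT, with means of 0.457 ± 0.407 and 0.696 ± 0.302 FPKM (SD, n = 3). S34F replicates 1 and 2 were the lowest of the 6 libraries and both replicates 3 the highest, and S34F was the lower in all 3 pairs. By the median transcript length the values come to 2.99, 4.57 and 17.7 fragments in S34F and 13.4, 8.15 and 19.2 in WT, and by the longest transcript to 18.4 to 118 per library, so the size of the counting error depends on which transcripts were present. The ratio of the means was 0.657, and on the log2(FPKM + 1) scale, which understates changes of such low genes, the difference was −0.24 (SE 0.23, interval −0.81 to 0.34, unadjusted p = 0.347, adjusted p = 0.999, limma, exact permutation p = 0.4). Without S34F replicate 3 the difference was −0.46 (unadjusted p = 0.0579) and without S34F replicate 1 or WT replicate 3 it was −0.11. *CASP4* is ENSG00000196954, at chr11:104942866-104969436 on the minus strand.

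*GSDMD*, the pore-forming substrate, was also low and was lower in S34F in all 3 pairs. It stood at 0.559, 0.39 and 0.815 FPKM in S34F and at 0.591, 0.725 and 0.934 FPKM in WT, with means of 0.588 ± 0.214 and 0.75 ± 0.173 FPKM (SD, n = 3). The groups overlapped, since S34F replicate 3 was above the first 2 WT libraries. The ratio of the means was 0.784 and the log2(FPKM + 1) difference −0.14 (SE 0.14, interval −0.49 to 0.21, unadjusted p = 0.351, adjusted p = 0.999, limma, exact permutation p = 0.4). At 8.83 to 22.6 fragments a library by the median transcript length, and 31.3 to 80 by the longest, it was above the 3-fragment level throughout. *GSDME*, another gasdermin that caspases cut, was under its 3-fragment level in all 6 libraries, at 0.0109 to 0.0326 FPKM. *GSDMB*, of the same family, was above its 3-fragment level, at 0.192 to 0.807 FPKM in S34F and 0.205 to 0.562 FPKM in WT. *NINJ1*, which ruptures the membrane after the pores, was the highest of the list at a mean of 2.37 FPKM (log2 difference 0.13, unadjusted p = 0.413, limma). *GSDMD* is ENSG00000104518, at chr8:143553207-143563062 on the plus strand of GRCh38.

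Markers of myeloid cells were mixed beside the lower S34F values of *CASP4*, *GSDMD* and *PYCARD*, none of which was called. The summed level of the 10 monocytic and granulocytic markers was 23.1 to 36.9 FPKM in S34F and 34 to 37.5 FPKM in WT. All 4 that were tested had log2 differences below 0. They were *ITGAM* at −0.52 (unadjusted p = 0.0148, adjusted p = 1, limma), *CD33* at −0.33 (unadjusted p = 0.0469), *LYZ* at −0.52 (unadjusted p = 0.185) and *SPI1* at −0.17 (unadjusted p = 0.342). *LYZ* was the highest of the list, at 8.52, 8.82 and 23.2 FPKM in S34F and 18.8, 17 and 17.6 FPKM in WT, so S34F replicate 3 was above every WT library. Under the filter, *CD14* (0.268 to 0.882 FPKM in S34F, 0.197 to 0.427 in WT) and *S100A9* (0.185 to 0.279 and 0 to 0.252 FPKM) were the higher in S34F in all 3 pairs, and *MPO*, *FCN1*, *S100A8* and *CSF1R* were under 0.1 FPKM. The summed level of the 4 lymphoid markers in the table, nearly all of it *CD3D*, was 8.91 to 15.2 FPKM in S34F and 16.7 to 17 FPKM in WT. The part of these levels in the values of *CASP4*, *GSDMD* and *PYCARD* was not tested.

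**Figure D2:**
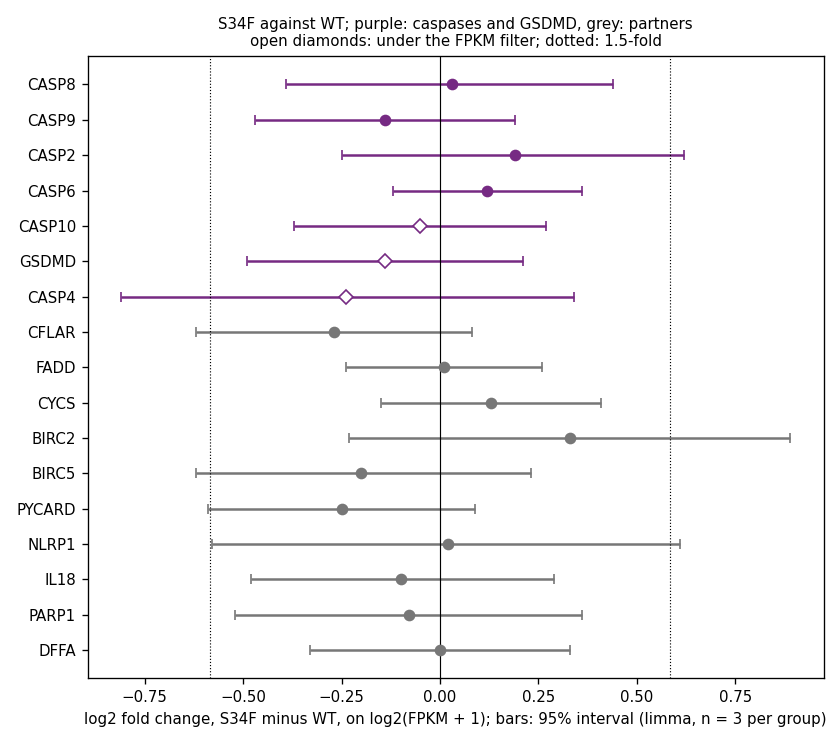
Log2 fold change of S34F against WT on log2(FPKM + 1) with its 95% interval (limma, 3 libraries per group), for the caspases and *GSDMD* (purple, open where under the FPKM filter) and their partners (grey). Each interval includes 0, and those of *CASP6*, *CASP8*, *CASP9*, *CASP10* and *GSDMD* lie within the dotted lines at 1.5-fold. The scale compresses changes of all genes, low genes the most, so the lines lie beyond a 1.5-fold change in FPKM.

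Summed over the 7 caspase genes, the level was 17.1, 20.4 and 21.4 FPKM in S34F and 18.9, 19.6 and 19.6 FPKM in WT, with means of 19.6 ± 2.26 and 19.4 ± 0.405 FPKM. The sum thus varied more among the S34F libraries than among the WT libraries, around a like mean. *CASP6* and *CASP9* together made up 58.5% to 68.1% of it, and *CASP1* and *CASP4* made up 1.11%, 1.25% and 4.38% in S34F and 3.62%, 2.06% and 5.19% in WT. The share of these 2 inflammatory caspases was the highest in replicate 3 of both groups.

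The libraries numbered 3 held the highest value of both groups for 3 of the 7 genes with a mean of at least 0.1 FPKM (*CASP4*, *CASP6* and *GSDMD*), which is 42.9%, beside 20.9% of all genes with such a mean. Among the 4 tested genes it was 1 (25%), beside 21.3% of all genes tested. They held the lowest value of both groups for 0 of the 7, beside 23.2% of genes with such a mean. For *CASP4*, replicate 3 lay above the mean of replicates 1 and 2 by 0.66 in S34F and 0.39 in WT on the log2(FPKM + 1) scale, and for *GSDMD* by 0.30 and 0.22. *CASP8* went apart, at 0.44 in S34F and −0.35 in WT. Leaving out each library in turn moved *CASP2* between 0.03 and 0.31, *CASP6* between 0.08 and 0.16 and *CASP9* between −0.23 and −0.04, so these 3 kept their sign, and *CASP4* and *GSDMD* stayed below 0 at −0.46 to −0.11 and −0.24 to −0.05.

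**Figure D3:**
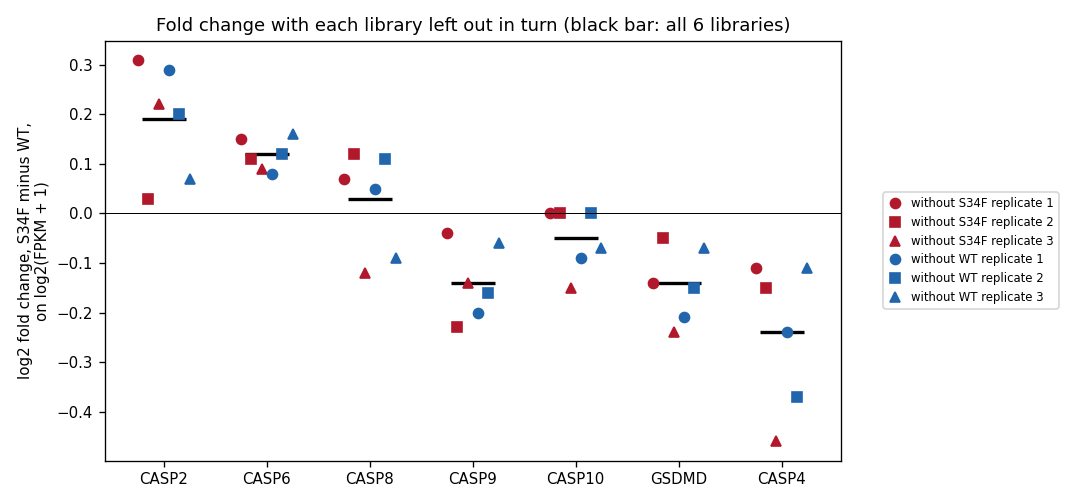
Log2 fold change of S34F against WT on log2(FPKM + 1) for 7 genes with all 6 libraries (black bar) and with each library left out in turn (symbols by the library left out). *CASP8* crosses 0 when replicate 3 of either group is left out, and *CASP4* moves most, from −0.46 to −0.11.

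Beyond the 8 genes, the pathway lists held 53 genes, of which 51 were in the table and 30 were tested. Of the 30, 19 had log2 differences above 0 and 11 below, with a median of 0.03 beside 0.01 over all genes tested, 54.6% of which lay above 0. None was called, and 0 had an unadjusted p under 0.05, the smallest being 0.111 for *CFLAR* (limma), against 2.39% of all genes tested. Among the genes listed as caspase inhibitors, *BIRC5* (survivin) was the highest at 12.3, 14 and 8.61 FPKM in S34F and 14.4, 13.2 and 12.2 FPKM in WT (log2 difference −0.20, unadjusted p = 0.308, limma). *XIAP*, which blocks caspase-9 directly, ran from 0.149 to 0.995 FPKM in S34F and from 0.304 to 1.29 FPKM in WT, below the filter. All 5 tested caspase substrates had differences at or below 0, with a median of −0.05: *LMNA*, a lamin cut by caspase-6, was the highest at 50.2 to 67.9 FPKM, *PARP1* stood at 39.4 to 59.4 FPKM (−0.08, unadjusted p = 0.677) and *DFFA*, the brake on the DNA-cutting nuclease, at 12.6 to 16.9 FPKM (0.00, unadjusted p = 0.999).

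Of the genes that the deposited pathway column assigns to KEGG Apoptosis, 96 of 133 were tested, 59 with differences above 0 and 37 below, with a median of 0.03, beside 5973 above and 4969 below over all genes tested. *CTSF*, a lysosomal cysteine protease, stood at 4.47, 5.18 and 4.65 FPKM in S34F and 5.93, 5.58 and 6.45 FPKM in WT. It was the 1 gene of this pathway with an unadjusted p under 0.05, at a log2 difference of −0.28 (SE 0.11, unadjusted p = 0.0369, adjusted p = 1, limma). Of KEGG NOD-like receptor signaling, 93 of 152 were tested, 62 above 0 and 31 below, with a median of 0.04. Here 3 passed the same threshold in the limma fit, each with an adjusted p of 1. They were *PLCB2*, a phospholipase, at −0.34 (limma, unadjusted p = 0.0288), *IKBKE*, a kinase of interferon signalling, at −0.33 (limma, unadjusted p = 0.0357), and *RNF31*, the catalytic subunit of the linear ubiquitin ligase, at 0.28 (limma, unadjusted p = 0.0455). None of these genes passed the 1.5-fold threshold, and 1 of 96 and 3 of 93 stand beside 2.39% of all genes tested.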

How the data were processed

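RNA-seq of 6 samples was analysed, 3 S34F and 3 WT, grouped by title and genotype. The authors deposited 1 table with FPKM values per gene and library, which carries the words raw counts in its name although 100% of its nonzero values were not whole (tolerance 1e-06). The deposited p-values and q-values and the deposited log2 fold changes belong to the authors' own comparison and were not used. StringTie and edgeR are named in the submitters' processing notes without version or role, while aligner, build and annotation are not given in the sources used here. Coordinates came from GENCODE 29 on GRCh38 through Ensembl identifiers (31002 of 31142 matched) and may differ from the authors' build.

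The genes and lists were chosen with earlier results of these data known. Named were the 8 genes, partners listed by name, the highest gene of each list, every listed gene with an unadjusted p under 0.05, and the 3 tested genes nearest in pattern to the tested gene with the largest difference. *BIRC2*, *PIDD1*, *CRADD* and the other genes outside that rule were chosen after their values were seen. The counts of the pathway lists include genes whose values are not reported here.

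Genes with a mean of at least 1 FPKM (10942) were fitted with limma 3.58.1 in R 4.3.3 on log2(FPKM + 1), with a variance trend, no block and Benjamini-Hochberg adjustment. A pseudocount of 1 understates changes of all genes, and those of low genes the most. Single genes also had a two-sided exact permutation test (smallest p 0.1). The FPKM of 1 fragment, from single-exon genes, gave approximate depths, and 3 fragments in a library was taken as the detection level, which covers counting error only. Deviations from the group means correlated at 0.212, 0.174 and 0.38 for equally numbered libraries, and at −0.295 to 0.197 for unequal numbers. The negative values were those between a replicate 3 and a library of another number. The equal numbers all exceeded 0.1. So did S34F replicate 2 with WT replicate 1 (0.197) and S34F replicate 1 with WT replicate 2 (0.134). The study speaks of pairs without saying how they were formed. The numbers were thus not shown to pair the samples, and the pairs named above are only libraries of equal number. The replicate block was fitted as an alternative. The limma script was tested on simulated data. Alternatives were 2 pseudocounts, 2 filters, 4 scalings, 2 variance models, the block, each library left out in turn, and both replicates 3 left out. Fits without a filter combined with the block or a left-out library were added after seeing the data. Other steps ran in Python 3.11.15 with scipy 1.17.1, pandas 2.3.3 and numpy 2.4.6, and plots were drawn with matplotlib 3.10.9.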

Additional observations from a re-analysis of the deposited data

How the results depend on the processing

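The count of called genes among those of the 8 that passed the filter (4, or 2 at a mean of at least 5 FPKM, or 8 without a filter) and among the pathway genes that passed it was 0 under every alternative run. *CASP1*, *CASP4*, *CASP10* and *GSDMD* were run without a filter only, with the block or with a library left out. On log2(FPKM + 1) a 1.5-fold change in FPKM stays under the 1.5-fold threshold at any level, and further under it the lower the gene. A count of 0 therefore says little about these 4 genes. For *CASP2*, *CASP6*, *CASP8* and *CASP9* the count alone does not leave out a 1.5-fold change in FPKM either. The count over all genes was 64, 122 with a pseudocount of 0.1 and also 122 with 0.01, 22 with a mean of at least 5 FPKM, 66 to 180 with a library left out and 183 without both replicates 3. At an adjusted p under 0.05 (limma) the count was 0 with all libraries, when 262 genes had an unadjusted p under 0.05, and it was 0 to 3 with a library left out and 8 without both replicates 3. Pathway genes with an unadjusted p under 0.05 numbered 0 with all libraries, 1 with the replicate block (*CFLAR*, adjusted p = 0.994), 0 to 2 with a library left out and 4 without both replicates 3 (*PYCARD*, *TNFRSF1A*, *TNFRSF10A* and *PIDD1*). The block pairing the replicate numbers changed no call among the caspases and *GSDMD*, with unadjusted p of 0.249 for *CASP6*, 0.327 for *CASP2*, 0.286 for *CASP9* and 0.901 for *CASP8*, and the count over all genes was 87. Of 91 values under alternatives for the genes other than *CASP1*, 85 kept their direction and side of the threshold, 3 (all *CASP10*) were 0.00 and so have no direction, and 3 were reversals of *CASP8*, whose log2 difference ran from −0.12 to 0.12 with a library left out and was −0.24 without both replicates 3. The cause was not tested. Among the 91, the filters, the variance models and the block leave the log2 difference itself unchanged, so there only the p-value could move. Depth limits *CASP1*, *NLRP3*, *CASP5*, *CARD16*, *GSDME* and *IL1B*, for which no fold can be given, and the fragments behind *CASP4* came to 66.1 in all libraries by its median and 407 by its longest transcript. Summing identifiers changes nothing, as each symbol has 1.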
